A study of Neurospora crassa with 14 samples.

Results

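The genes described here are 7 heat shock and chaperone genes of the filamentous fungus Neurospora crassa: hsp98 (NCU00104), hsp30 (NCU09364), hsp70-1 (NCU09602), hsp80 (NCU04142), hsp88 (NCU05269), grp78 (NCU03982) and hsp60 (NCU01589). They were chosen by symbol, 7 of the 9552 genes listed in any of 5 deposited tables of expression change. All 7 stand in each of the tables with an adjusted p, so none was lost to a filter on low values.

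The 5 comparisons rest on RNA sequencing of 7 groups with 2 libraries per group, 14 in all. Of these, 4 groups carried a deletion of sds3 (NCU01599), rlp1 (NCU09007), rlp2 (NCU02898) or eaf-3 (NCU06788), and their control was a wild type group. The samples of each of these 5 groups were different strains: N8193 and N8194 for sds3, N8185 and N8186 for rlp1, N6706 and N6707 for rlp2, N5278 and N6169 for eaf-3, and N3752 and N3753 for wild type. The 2 remaining groups were both grown from 1 marked strain, N6279, as biological replicates, labelled his-3; pNCU05173::hph; pNCU07152::nat-1, with 5 ul of Trichostatin A (TSA) or with 0 ul. TSA inhibits histone deacetylases, and the study concerns the RPD3L and RPD3S deacetylase complexes. The TSA groups therefore share a histidine requirement and 2 resistance markers under the promoters named in that label, which the deletion groups are not labelled with, and a volume of TSA is given without a concentration. All cultures were 5 ml in minimal medium with 1.5% sucrose, shaken for 16 h at 32 °C, with histidine added for the marked strain. No heat treatment is named in the labels, so the values are those of growth at this temperature.

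Molecular chaperones bind unfolded or misfolded proteins, keep them from aggregating and help them to fold. Hsp70 and Hsp90 proteins work in cycles of ATP hydrolysis, Hsp110 proteins exchange the nucleotide of Hsp70, small heat shock proteins hold unfolded proteins without ATP, and the Hsp100 disaggregases pull proteins out of aggregates. Many of these genes are also transcribed without heat stress and are induced by heat shock factor, while the Hsp70 of the endoplasmic reticulum is induced when unfolded proteins gather there. Each compartment of the cell has its own set, with chaperonins of the Hsp60 type in the mitochondrial matrix.

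Every fold change, average and adjusted p below is that of the authors' deposited table for the comparison, unless a difference between comparisons is named. The tables hold no value per library, so depth and the spread between the 2 samples of a group are unknown here. Values after ± are standard errors worked back from the deposited p-values under a normal test, and intervals are 95% normal intervals. The words rose and fell are kept for genes with an adjusted p under 0.05. The 4 deletion comparisons share the same wild type libraries, so equal signs in all 4 are not separate observations. The deleted gene was at 58.9% of wild type in the sds3 table (45.3% to 76.7%), 49.0% in the rlp1 table (31.5% to 76.4%), 13% in the rlp2 table and 0.202% in the eaf-3 table, so the deleted gene itself marks the sds3 and rlp1 groups less clearly than the other deletion groups. The rlp1 gene was also at 59.3% of wild type in the eaf-3 deletion (38.2% to 92.0%, adjusted p = 0.0596). That interval overlaps the one in the rlp1 deletion. In the rlp2 and sds3 deletions the rlp1 gene was at 98.3% and 111%.

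Across the 5 comparisons the 7 genes gave 35 values, of which 2 rose, 8 fell and 25 did not pass. In the sds3 deletion 6 of 7 passed, 2 higher and 4 lower, where 34.6% of all genes tested passed (19.0% higher and 15.7% lower). In each of the other 4 comparisons 1 of 7 passed, always lower. Among all genes, 23.2% passed in the rlp1 table (14.6% higher, 8.61% lower) and 11% in the rlp2 table (6.99% higher, 4.02% lower). The eaf-3 comparison had 31.7% (20.2% higher, 11.5% lower), and the TSA comparison had 8.77% (5.15% higher, 3.62% lower). A single call among 7 genes is near these background shares, and nothing particular to the 7 genes is read from it. The median log2 fold change of the 7 genes was -0.60 in the sds3 deletion, -0.35 in the rlp1 deletion, -0.43 in the rlp2 deletion, -0.16 in the eaf-3 deletion and 0.01 with TSA. The median over all genes tested was 0.07, 0.01, -0.01, 0.07 and -0.08 in the same tables. Each of the 7 genes passed in at least 1 table, as did 64.6% of all genes with an adjusted p in all 5 tables. None of the 7 passed in both directions over the tables, beside 4.65% of all genes. No value reached the absolute log2 fold change over 2 that the authors' own category asks for, which held 6.64% of all genes in the sds3, 5.11% in the rlp1, 2.22% in the rlp2, 11.2% in the eaf-3 and 2.68% in the TSA table. At an adjusted p under 0.01, 3 of 7 passed in the sds3 deletion, beside 24.3% of all genes, and 0 of 7 in the other tables, beside 14.4%, 6.39%, 20.3% and 4.87% in the rlp1, rlp2, eaf-3 and TSA tables.

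**Figure D1:**
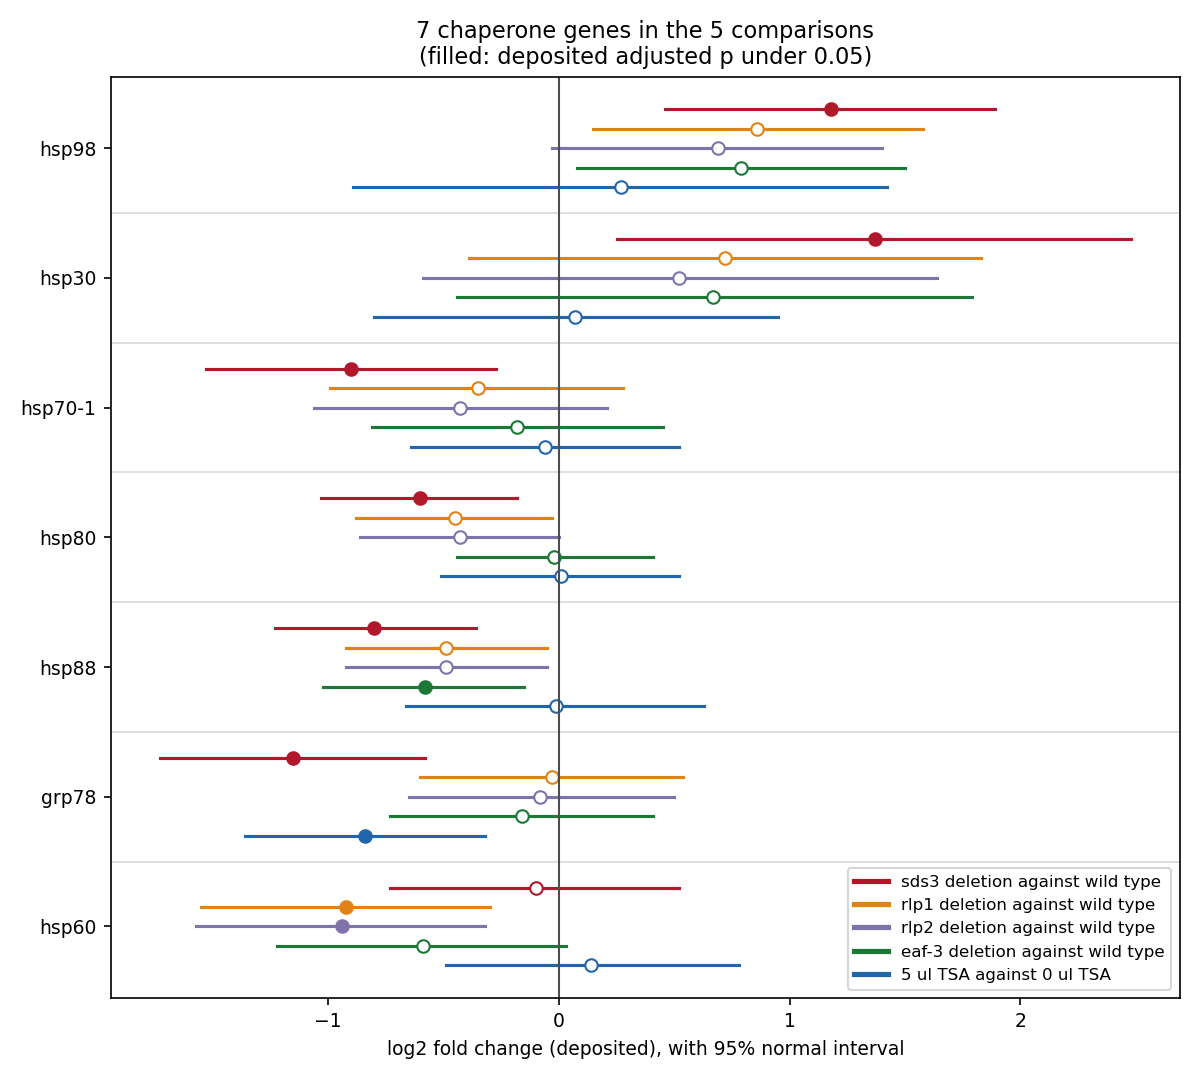
Deposited log2 fold change (x axis) of the 7 genes (y axis) in the 5 comparisons, 1 colour each. Points are the deposited values, lines the 95% normal interval implied by the deposited p-value, and filled points have an adjusted p under 0.05: hsp98 and hsp30 lie above 0 in all comparisons, with the filled points at 1.18 and 1.37 in the sds3 deletion, while grp78 is filled in the sds3 deletion (-1.15) and with TSA (-0.84).

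The disaggregase and the small heat shock protein were the members that rose. Hsp98 is the Hsp100 protein of Neurospora, a relative of the yeast disaggregase Hsp104, and hsp30 encodes a small heat shock protein of the alpha-crystallin type. In the authors' deposited table hsp98 rose in the sds3 deletion to 226% of wild type (138% to 370.4%), a log2 fold change of 1.18 ± 0.36 (adjusted p = 0.00581). Its values in the other deletion tables lay above 0 as well but did not pass, at 0.86 ± 0.36 in the rlp1 deletion (adjusted p = 0.0681), 0.69 ± 0.36 in the rlp2 deletion (adjusted p = 0.242) and 0.79 ± 0.36 in the eaf-3 deletion (adjusted p = 0.0828). Hsp98 was thus at 161% to 226% of wild type in the deletion groups, and the order was sds3, rlp1, eaf-3, rlp2, then wild type.

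With TSA the deposited value of hsp98 was 0.27 ± 0.59 (adjusted p = 0.869), and its interval of 54.1% to 268% of the 0 ul group held both the unchanged level and the size of the sds3 value. This was the least precise of the 7 genes in that table: with its error, a log2 change of at least 1.68 would have been needed to pass, against 0.87 in the sds3 table. The average normalized signal of hsp98 was 4097.5 in the TSA table and 5106.3 in the deletion tables; which libraries these averages cover is not stated.

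In the authors' deposited table hsp30 rose in the sds3 deletion to 258% of wild type (119% to 557%), by 1.37 ± 0.57 on the log2 scale. Its adjusted p of 0.0472 was the closest to the threshold of all calls on these genes, and was 0.0631 after centring of the fold changes on the median of all genes (0.0472 to 0.0631 over the alternatives). The deposited values of hsp30 were 0.72 ± 0.57 in the rlp1 deletion, 0.52 ± 0.57 in the rlp2 deletion, 0.67 ± 0.57 in the eaf-3 deletion and 0.07 ± 0.45 with TSA, with adjusted p of 0.371, 0.645, 0.383 and 0.958. Hsp30 had the lowest average signal of the 7 genes in both sets, 693 in the deletion tables and 349 in the TSA table, and the largest standard error in the deletion tables. These averages are not scaled to gene length, and no order of abundance between genes is drawn from them.

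Hsp70-1, hsp80 and hsp88 fell in the sds3 deletion. Hsp70-1 is a cytosolic Hsp70, hsp80 encodes the Hsp90 of Neurospora, and Hsp88 is a relative of Hsp70 in the Hsp110 group that was found bound to Hsp30. In the authors' deposited table hsp70-1 fell to 53.6% of wild type (34.6% to 83.1%), at -0.90 ± 0.32 (adjusted p = 0.0193). Hsp80 fell to 65.8% (49.0% to 88.4%), at -0.60 ± 0.22 (adjusted p = 0.0196), and hsp88 to 57.6% (42.6% to 77.8%), at -0.80 ± 0.22 (adjusted p = 0.00191). The 3 intervals overlap one another, and each lies below 100%.

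Hsp88 also fell in the eaf-3 deletion, to 66.7% of wild type (49.4% to 90.1%), at -0.58 ± 0.22 in the authors' deposited table (adjusted p = 0.0302). Its values were -0.49 ± 0.22 in the rlp1 and also in the rlp2 deletion, where the unadjusted p of 0.0275 and 0.0279 became adjusted p of 0.0925 and 0.150. With TSA hsp88 was at 99.0% of the 0 ul group (63.4% to 155%), a log2 fold change of -0.01 ± 0.33. Hsp88 was thus the member with the most even values across the deletions, from -0.80 to -0.49.

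Hsp80 had deposited values of -0.45 ± 0.22 in the rlp1 deletion (adjusted p = 0.113) and -0.43 ± 0.22 in the rlp2 deletion (adjusted p = 0.212), but -0.02 ± 0.22 in the eaf-3 deletion (adjusted p = 0.963) and 0.01 ± 0.26 with TSA (adjusted p = 0.994). The interval in the eaf-3 deletion ran from 73.6% to 133% of wild type and that with TSA from 70.3% to 144% of the 0 ul group. Hsp70-1, with an average signal of 30742.4 in the deletion tables, had values of -0.35 ± 0.32, -0.43 ± 0.32 and -0.18 ± 0.32 in the rlp1, rlp2 and eaf-3 deletions and -0.06 ± 0.30 with TSA, none past the test in the authors' deposited table (adjusted p from 0.452 to 0.946). Hsp70-1, grp78, hsp70-2 and hsp70-5 belong to 1 gene family whose members may share reads, and their values are uncertain to that extent.

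Grp78 was the only one of the 7 genes that passed in the TSA comparison. It encodes the Hsp70 of the endoplasmic reticulum, the relative of mammalian BiP and yeast Kar2, which binds newly made secretory proteins. In the authors' deposited table grp78 fell with TSA to 55.8% of the 0 ul group (38.9% to 80.1%), at -0.84 ± 0.27 (adjusted p = 0.0237). This call did not hold after centring on the median of all genes, where the value was -0.76 (adjusted p = 0.0510; 0.0237 to 0.0510 over the alternatives). Grp78 also fell in the sds3 deletion, to 44.9% of wild type (30.2% to 66.8%), at -1.15 ± 0.29 (adjusted p = 0.000567), the largest fall and the smallest adjusted p of the 7 genes in any table. In the other deletion tables it was close to wild type, at -0.03 ± 0.29 in the rlp1, -0.08 ± 0.29 in the rlp2 and -0.16 ± 0.29 in the eaf-3 deletion, with adjusted p of 0.960, 0.920 and 0.709. The intervals in these 3 tables together span 60.1% to 146% of wild type, and the sds3 value of 44.9% lies outside each of them. The sds3 interval reaches 66.8% and overlaps each of them, so no difference is read from this. The differences themselves are tested below. The TSA and the sds3 comparisons share no library.

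Hsp60, the chaperonin of the mitochondrial matrix, was the only member that did not pass in the sds3 deletion, at -0.10 ± 0.32 or 93.1% of wild type (60.3% to 144%) in the authors' deposited table (adjusted p = 0.838). It fell in the rlp1 deletion to 52.8% (34.2% to 81.5%), at -0.92 ± 0.32 (adjusted p = 0.0221), and in the rlp2 deletion to 52.0% (33.7% to 80.4%), at -0.94 ± 0.32 (adjusted p = 0.0331). In the eaf-3 deletion its deposited value was -0.59 ± 0.32 (adjusted p = 0.146), and with TSA 0.14 ± 0.32 (adjusted p = 0.873). The order of the groups for hsp60 was wild type, sds3, eaf-3, rlp1 and rlp2, which puts the sds3 deletion next to wild type, where for the other 6 genes it stood farthest from it.

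**Figure D2:**
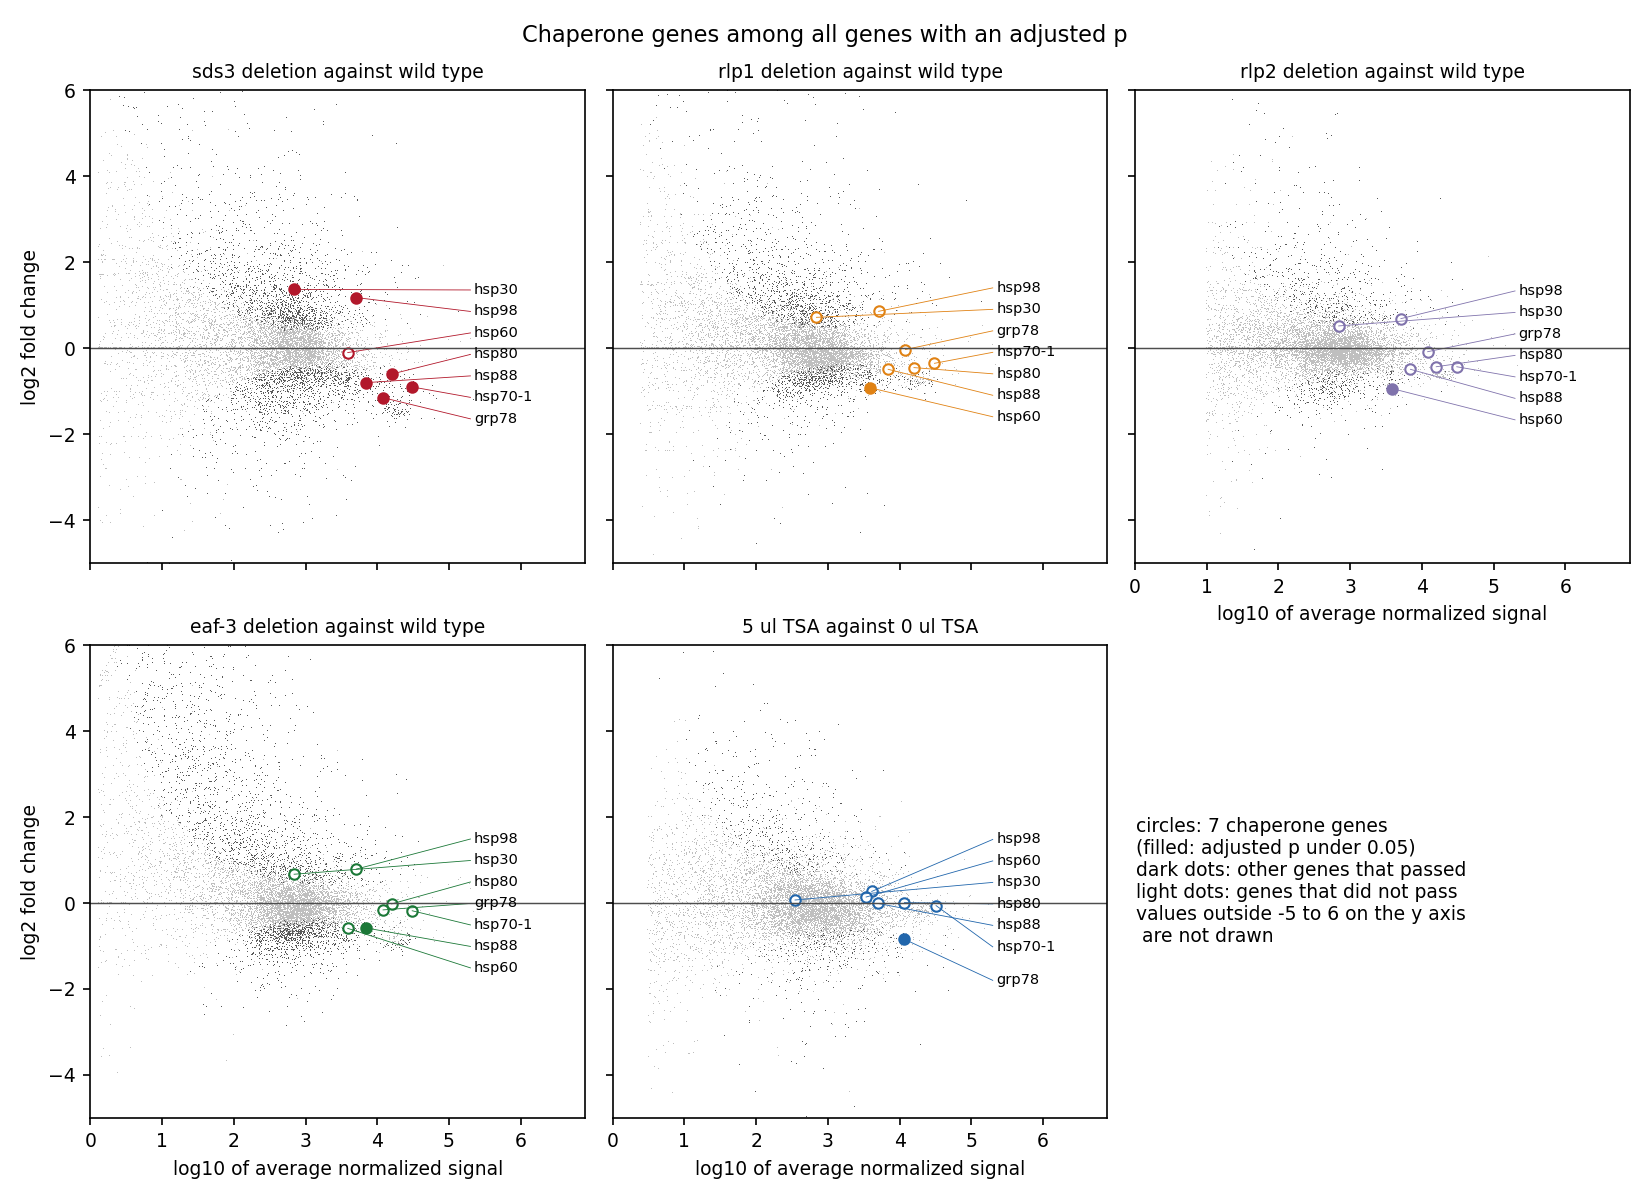
Deposited log2 fold change (y axis) against log10 of the deposited average signal (x axis) for all genes with an adjusted p, 1 panel per comparison. Circles are the 7 genes, filled where the adjusted p lay under 0.05, dark dots other genes that passed and light dots those that did not, and points beyond the y axis are not drawn. Hsp30 is the leftmost of the 7 circles in each panel, and 6 of the 7 are filled in the sds3 deletion and 1 in each other panel.

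A call in one table and none in another does not show a difference, so the differences of the log2 fold changes were tested for the 10 pairs of comparisons, with p-values adjusted over all genes. With both standard errors taken as independent, none of the 70 differences of the 7 genes passed. Over all genes, 10.2% passed for sds3 minus rlp1, 7.43% for sds3 minus rlp2, 20.3% for sds3 minus eaf-3, 0.990% for rlp1 minus rlp2, 13% for rlp1 minus eaf-3 and 9.41% for rlp2 minus eaf-3. For TSA minus the sds3, rlp1, rlp2 and eaf-3 deletions the shares were 11%, 5.90%, 4.64% and 12.2%, and over all 10 pairs together 9.52% passed. The independent errors count the wild type libraries more than once for a pair of deletions. With the wild type taken as shared, 6 of the 42 differences between deletions passed, all of them in pairs with the sds3 deletion. In each of these pairs 2 of the 7 genes passed. Among all genes, 26.4% passed for sds3 minus rlp1, 22.1% for sds3 minus rlp2 and 37.6% for sds3 minus eaf-3. These counts are near background, and nothing particular to the 7 genes is read from them. In the pairs with no member past the test, the shares were 3.81% for rlp1 minus rlp2, 27.9% for rlp1 minus eaf-3 and 22.7% for rlp2 minus eaf-3.

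These 6 differences were those of the sds3 deletion. For grp78 the sds3 deletion lay below the rlp1 deletion by -1.12 (interval with independent errors -1.93 to -0.31), below the rlp2 deletion by -1.08 (-1.89 to -0.27) and below the eaf-3 deletion by -0.99 (-1.80 to -0.18). The adjusted p was 0.0591, 0.0888 and 0.0708 with independent errors, and 0.00112, 0.00226 and 0.00305 with a shared control. For hsp60 the sds3 deletion lay above the rlp1 deletion by 0.82 ± 0.45 and above the rlp2 deletion by 0.84 ± 0.45, with adjusted p of 0.274 and 0.297, against 0.0414 and 0.0416 with a shared control. For hsp80 the sds3 deletion lay below the eaf-3 deletion by -0.59 ± 0.31 (adjusted p = 0.172, or 0.0217 with a shared control).

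Between the rlp1 and the rlp2 deletion the 7 genes had close values. With independent errors, the differences rlp1 minus rlp2 ran from -0.02 ± 0.31 for hsp80 to 0.20 ± 0.80 for hsp30, and each adjusted p was 1.000. The intervals with independent errors still allow differences of -0.87 to 0.91 for hsp60 and -1.37 to 1.77 for hsp30. With the wild type taken as shared, the standard errors were smaller, at 0.32 for hsp60 (against 0.45) and 0.57 for hsp30 (against 0.80). Equal effects are not shown in either form.

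The TSA comparison was set against each deletion with 28 differences, none of which passed. For grp78 the value TSA minus sds3 was 0.31 ± 0.40 (-0.46 to 1.09; adjusted p = 0.689), and TSA minus rlp1 was -0.81 ± 0.40 (adjusted p = 0.243). For hsp60 TSA minus rlp2 was 1.09 ± 0.46 (adjusted p = 0.168) and TSA minus rlp1 was 1.07 ± 0.46 (adjusted p = 0.158). For hsp88 TSA minus sds3 was 0.78 ± 0.40 (adjusted p = 0.202), and for hsp30 it was -1.29 ± 0.72 (adjusted p = 0.261). TSA and the deletions were measured in different strains, so strain and treatment cannot be told apart in these differences.

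**Figure D3:**
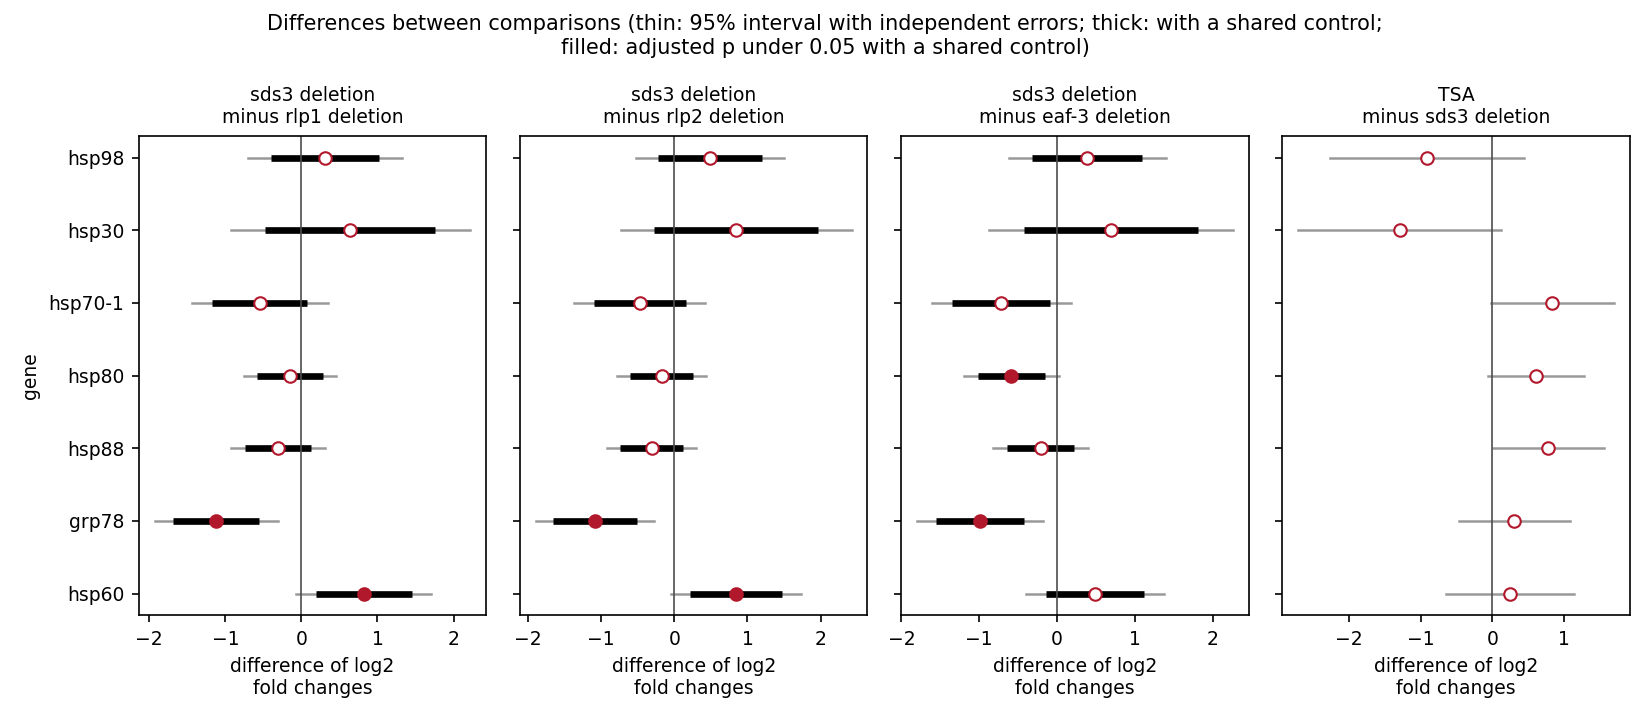
Differences of log2 fold changes (x axis) of the 7 genes (y axis) between the sds3 deletion and each other deletion, and between TSA and the sds3 deletion. Thin lines are 95% intervals with independent errors, thick lines those with the wild type taken as shared, and filled points passed with the shared control: grp78 is filled against all 3 other deletions (-1.12, -1.08 and -0.99), hsp60 against rlp1 and rlp2 (0.82 and 0.84) and hsp80 against eaf-3 (-0.59).

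The groups of the deletion set were also put in order for each gene. Of the 28 pairs of neighbours in these orders, none differed past the test with independent errors. Those errors count the wild type libraries more than once for neighbours that are both deletions. With the wild type taken as shared, the grp78 neighbours eaf-3 and sds3 did differ (adjusted p = 0.00305, against 0.0708). In that pair of deletions 37.6% of all genes passed with the shared control. For hsp70-1 the order was wild type, eaf-3, rlp1, rlp2 and sds3, and for hsp80 it was wild type, eaf-3, rlp2, rlp1 and sds3. For hsp88 it was wild type, rlp2, rlp1, eaf-3 and sds3, for grp78 wild type, rlp1, rlp2, eaf-3 and sds3, and for hsp30 sds3, rlp1, eaf-3, rlp2 and wild type.

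The pattern of each gene over the 5 comparisons was set against 1084 genes with a symbol and an average of at least 20. Likeness was the root mean square of the differences between log2 fold changes, as a description over 5 values, 4 of which share the wild type libraries. The gene nearest to hsp98 was hsp30, at 0.16, and the gene nearest to hsp30 was hsp98. Next for both came gln-2, at 0.22 from hsp98 and 0.21 from hsp30, and camk-4, at 0.24 and 0.22. This measure takes no account of the standard errors. In the deletion tables these were 0.36 for hsp98 and 0.57 for hsp30, larger than these distances, so the order of the nearest genes is not settled. Hsp80 stood at rank 8 from hsp70-1 and hsp70-1 at rank 8 from hsp80, at 0.16, while hsp88 stood at rank 22 from hsp70-1, at 0.20.

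The other members had no member among their 3 nearest genes. Nearest to hsp70-1 were cys-16, cys-11 and atp-1 (0.08 to 0.14), to hsp80 cys-11, asn-2 and cdp-2 (0.09 to 0.12), and to hsp88 leu-6, eif5A and cox-4 (0.06 to 0.12). Nearest to grp78 were tah-1, mob-2a and gcy-1 (0.17 to 0.21), which in the authors' deposited table had values of -1.30, -0.89 and -0.82 in the sds3 deletion and -0.89, -0.54 and -0.82 with TSA. Nearest to hsp60 were tim44, cyt-19 and arg-10 (0.09 to 0.20), with tim44 at -0.02 in the sds3, -0.85 in the rlp1 and -0.93 in the rlp2 deletion. From hsp98, the 5 genes that fell in some table stood at ranks 711 to 858.

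Around these genes a wider list of 10 chaperone and stress regulator genes was read, of which 6 passed in at least 1 table, beside the 64.6% of all genes. In the sds3 deletion 2 of the 10 rose and 3 fell, in the rlp1 and the rlp2 deletion 1 fell in each, in the eaf-3 deletion 1 rose and 1 fell, and with TSA none passed. Among all genes, 34.6% passed in the sds3, 23.2% in the rlp1, 11% in the rlp2, 31.7% in the eaf-3 and 8.77% in the TSA comparison. The list medians were 0.06, -0.18, -0.03, -0.28 and -0.12, beside the medians over all genes given above. Hsp78, named like the mitochondrial Hsp100 protein of yeast, rose in the sds3 deletion by 1.15 ± 0.23 (adjusted p = 1.25e-05) and in the eaf-3 deletion by 0.72 ± 0.23 (adjusted p = 0.0105) in the authors' deposited table. Its values in the rlp1 and rlp2 deletions were 0.49 ± 0.24 and -0.12 ± 0.24, neither past the test.

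Among the Hsp70 genes of the wider list, hsp70-2 fell in the sds3 deletion to 34.3% of wild type (20.8% to 56.5%), at -1.55 ± 0.37, and in the eaf-3 deletion to 52.4% (31.8% to 86.4%), at -0.93 ± 0.37, in the authors' deposited table (adjusted p = 0.000224 and 0.0383). Its values of -0.81 ± 0.37 in the rlp1 and -0.90 ± 0.37 in the rlp2 deletion did not pass. Hsp70-5 fell in the rlp2 deletion, by 0.72 on the log2 scale with a standard error of 0.26 (adjusted p = 0.0472), and was at 0.76 ± 0.35 with TSA (adjusted p = 0.171). Hsp90a rose in the sds3 deletion by 0.88 ± 0.26 (adjusted p = 0.00407), where hsp80 fell.

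Csr-1, the cyclophilin gene in which cyclosporin resistance arises, fell in the sds3 deletion (-0.73 ± 0.24, adjusted p = 0.0104) and in the rlp1 deletion (-0.61 ± 0.24, adjusted p = 0.0499) in the authors' deposited table. NCU01856, for which the gene table gives no symbol, fell in the sds3 deletion (-0.74 ± 0.26, adjusted p = 0.0155), with 0.43 ± 0.26 in the rlp1 deletion, 0.52 ± 0.26 in the rlp2 deletion and -0.82 ± 0.37 with TSA, none of these past the test. The heat shock factor gene hsf-1 had 0.42 ± 0.18 in the sds3 deletion (adjusted p = 0.0509), 0.12 ± 0.18 in rlp1, 0.07 ± 0.18 in rlp2 and 0.24 ± 0.18 in eaf-3, and -0.48 ± 0.24 with TSA (adjusted p = 0.219). Hsf-2 ran from -0.72 ± 0.33 with TSA to 0.04 ± 0.31 in the sds3 deletion. Neither hsf gene, fkr-2 nor stk-14 passed in any table.

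**Figure D4:**
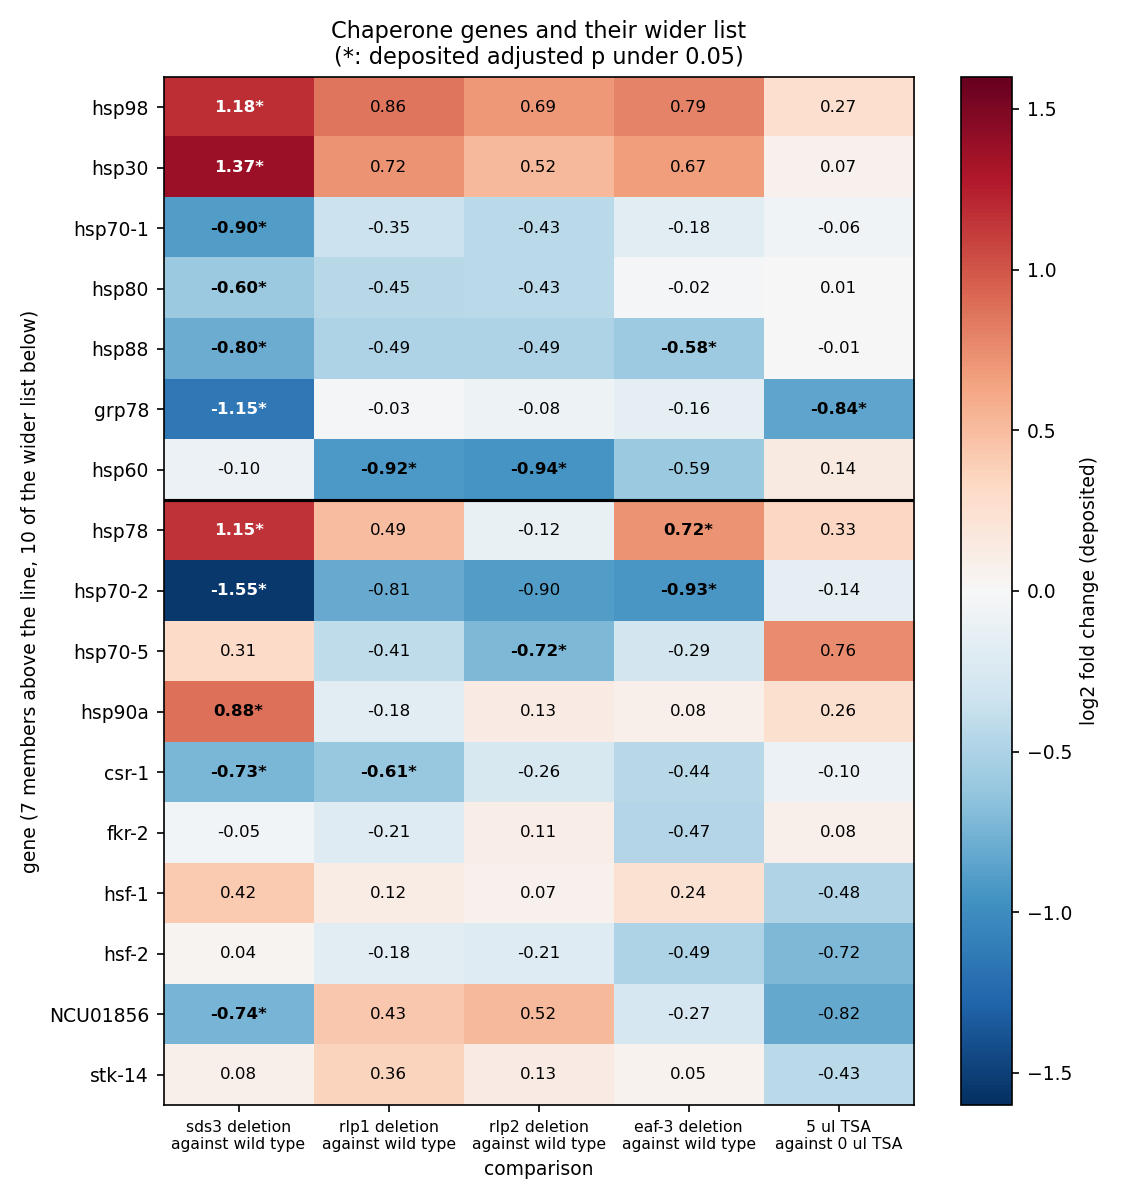
Deposited log2 fold change (colour and printed value) of the 7 genes, above the line, and of the 10 genes of the wider list, below it (y axis), in the 5 comparisons (x axis). Asterisks mark an adjusted p under 0.05: 11 stand in the sds3 column, 2 each in the rlp1 and rlp2 columns, 3 in the eaf-3 column and 1 in the TSA column.

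The 7 genes lie on 6 of the linkage groups, and only hsp70-1 and hsp60 share one. By gene order hsp70-1 is the closest to an end, with 25 protein-coding genes between it and the end of linkage group II, and hsp88 follows with 118 on linkage group IV. Of the genes beside hsp70-1, in the authors' deposited table NCU09603 rose in the eaf-3 deletion by 8.89 ± 1.52 (adjusted p = 1.27e-07), where hsp70-1 was at -0.18 ± 0.32, and NCU09600 passed in no table. Beside hsp88, chs-6, named as a chitin synthase gene, fell in the sds3 deletion (-1.82 ± 0.46) and in the rlp1 deletion (-1.56 ± 0.43). Chs-6 rose in the eaf-3 deletion (1.71 ± 0.37), while hsp88 fell in both the sds3 and the eaf-3 deletion. The other neighbour of hsp88, NCU05270, fell in the eaf-3 deletion as hsp88 did (-0.84 ± 0.31, adjusted p = 0.0256), and was at -0.57 ± 0.31 in the sds3, -0.47 ± 0.31 in the rlp1 and -0.55 ± 0.31 in the rlp2 deletion, none of these past the test. Beside hsp30, NCU09365 rose in the sds3 deletion (1.32 ± 0.38, adjusted p = 0.00251), as hsp30 did, and in the rlp1 deletion (1.61 ± 0.37), while NCU10352 on the other side passed in no table. The neighbours of hsp98, NCU00103 and NCU00105, both fell in the rlp1 deletion (-0.76 ± 0.24 and -0.99 ± 0.22), where hsp98 was at 0.86 ± 0.36. NCU00103 also fell in the eaf-3 deletion (-1.11 ± 0.24) and NCU00105 in the rlp2 deletion (-0.94 ± 0.21). The neighbours of grp78, hsp80 and hsp60 passed in no comparison, and NCU03983 beside grp78 had no adjusted p. Of all genes with an adjusted p in all 5 tables, 64.6% passed in at least 1. Nothing particular to the neighbours is therefore read from these calls, and shared regulation with the 7 genes was not tested.

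Genes of conidia, the asexual spores, and of conidiation were read beside the chaperones, as markers of another cell type that the cultures could hold. Of con-6, con-8, con-10, con-13, eas, csp-1 and fl, 5 of 7 rose in the sds3 deletion, 7 in the rlp1, 3 in the rlp2 and 2 in the eaf-3 deletion and 1 with TSA, and none fell. The share of all genes that rose was 19.0%, 14.6%, 6.99%, 20.2% and 5.15% in these comparisons, so the counts in the eaf-3 and TSA comparisons are near background. Their median log2 fold change was 3.05, 3.43, 1.50, 1.64 and 0.67 in these tables. The values of eas in the eaf-3 deletion (-0.81), con-13 in the rlp2 deletion (-0.38) and fl with TSA (-0.60) lay below 0, none past the test. None of these markers was at 0 on average, with deposited averages from 14.3 for con-13 to 83554.1 for eas in the deletion tables. The part of spore-forming cells in the chaperone values was not tested, and more cells of a type and more RNA per cell cannot be told apart in these samples.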

How the data were processed

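Only the authors' own comparisons were used, 5 tables. The submitters' processing notes name DESeq2 1.24.0, RSEM 1.3.1 and STAR 2.7.3a, without the role of each; build, annotation and strand setting were not given in these sources. The columns of a deposited table, per the file headers, are the average of a gene (a normalized signal), its log2 fold change, its p-value and FDR, and a score for the category. The average was the same in all 4 deletion tables; which libraries it covers is not stated. Recomputed Benjamini-Hochberg values matched the deposited FDR, and the category asks for an FDR under 0.05 with a log2 fold change beyond 2 in size. No column of values per library was present (0 columns), so depth is unknown.

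Dividing the size of each log2 fold change by the normal quantile of its p-value gave the standard error. Differences of 2 log2 fold changes were tested two-sided with a normal test and Benjamini-Hochberg adjustment over all genes (Python 3.11.15, scipy 1.17.1). A test on simulated data was run first, with independent errors and planted changes larger than any difference of the 7 genes. The form with a shared control was not simulated. With a shared control, 0.5 of the smaller squared standard error was taken as covariance. Symbols and gene order came from a RefSeq table (assembly NC12), which matched 9551 of 9552 identifiers; no coordinates are given, since the files name no build. Named genes are all 7 members, the genes of the wider list that passed in at least 1 table, and the 3 genes nearest to each member; hsf-1, hsf-2, fkr-2, stk-14 and the neighbours in gene order were named after their values were seen. The wider list was formed by symbol stems and identifiers. Members, lists and tests were chosen with earlier results of these data known. Alternatives were a threshold of 0.01, adjustment over all genes with a p-value, centring on the median of all genes, the authors' category, and a shared control.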

Additional observations from a re-analysis of the deposited data

Results flagged for a closer look

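In the wider list, 7 of 100 differences between comparisons passed with independent errors and p-values adjusted over all genes, where 9.52% of the differences of all genes passed over the same 10 pairs. The number is thus near background, and the values are given as they are. Between deletions, the sds3 deletion minus the rlp1 deletion was 1.07 ± 0.37 for hsp90a (adjusted p = 0.0444) and -1.16 ± 0.36 for NCU01856 (adjusted p = 0.0206). The sds3 deletion minus the rlp2 deletion was -1.26 ± 0.36 for NCU01856 (adjusted p = 0.0127) and 1.27 ± 0.33 for hsp78 (adjusted p = 0.00460). Independent errors count the wild type libraries more than once for such pairs. With the wild type taken as shared, more differences between deletions passed. Among them was hsp70-5 for sds3 minus rlp2 (1.03, adjusted p = 0.000763). Others were hsp90a for sds3 minus eaf-3 (0.80, adjusted p = 0.00865) and hsp78 for rlp2 minus eaf-3 (-0.84, adjusted p = 0.00306). Among all genes 22.1%, 37.6% and 22.7% passed in these pairs with the shared control. With separate controls, TSA minus the sds3 deletion was 1.40 ± 0.48 for hsp70-2 (adjusted p = 0.0387) and -0.90 ± 0.30 for hsf-1 (adjusted p = 0.0265). TSA minus the rlp2 deletion was 1.48 ± 0.43 for hsp70-5 (adjusted p = 0.0199). Neither hsf-1 value passed against its own control.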

How the results depend on the processing

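With a threshold of 0.01 the calls on the 7 genes were 3 of 7 in the sds3 deletion (1 higher, 2 lower), against 6 at 0.05, and 0 in each of the other 4 comparisons, against 1; the authors' category gave 0 in all 5. Adjustment over all genes with a p-value changed no call. Centring on the median of all genes left 0 calls with TSA, against 1 (grp78), took hsp30 out of the sds3 calls, which stayed within 1.5 times, and let 1 difference pass, that of grp78 between the sds3 and rlp1 deletions (-1.19, adjusted p = 0.0440), against 0. With the control taken as shared, 2 differences passed for the sds3 deletion minus each of the rlp1, rlp2 and eaf-3 deletions, against 0. These counts are near the background shares given above. No called value changed sign under the alternatives run. Centring turned the sign of 2 uncalled values with TSA, hsp70-1 (0.02, against -0.06) and hsp88 (0.06, against -0.01), and took the uncalled hsp60 difference rlp1 minus rlp2 to -0.00, against 0.02. No paired analysis was possible because the tables hold no values per library, and for the same reason leaving out each replicate was not run. The error of hsp30 in the deletion tables and of hsp98 in the TSA table limits what those values can show.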
